A study of Mus musculus with 24 samples.

Results

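The choroid plexus of old mice carrying a humanized ApoE3 gene and kept on normal chow was described on its own, as a reference state. The members were chosen by their labels and were 6 of the 24 arrays of the study. All 6 samples came from C57BL mice of 78 weeks with the genotype humanized ApoE3-Knockin, and arrays 4, 5 and 6 were labelled female and arrays 1, 2 and 3 male. In a knock-in of this kind the human APOE sequence stands in place of the mouse gene, so the mice make human apolipoprotein E3. Tissue was collected from frozen sections by laser capture, in which a region is cut out under a microscope, and its RNA was read on Affymetrix Mouse430A_2 arrays. The study's other 18 arrays (ApoE4, or a high-fat diet, or both) were not used here. The labels say neither how regions were chosen nor whether an array stands for 1 animal or a pool, so the spread between arrays may be technical in part.

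The choroid plexus is a folded tissue in the brain ventricles. Its epithelium secretes cerebrospinal fluid, moves ions, vitamins and hormones between blood and fluid, and is sealed by tight junctions. Below the epithelium lies a stroma with leaky capillaries, pericytes, fibroblasts and macrophages, through which immune cells can reach the fluid. In a bulk sample of this tissue, fewer cells of a type and less RNA per cell cannot be told apart.

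A probe set is a group of short probes for the same transcript, and its signal is a brightness in arbitrary units. Each signal came with a detection call: Present, Marginal or Absent. Brightness depends on the probes as well as on the RNA, so an order of brightness between genes is not an order of RNA amounts. Where a gene had several probe sets, the brightest by mean log2 signal that was Present on all 6 arrays stood for it. This gave 6634 genes. Spread is given as the SD over the 6 arrays of log2(signal + 16).

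3 promoter windows are shown as examples: Gbp3 and Ifit3 for interferon-induced genes and Cry1 for the circadian clock. Their genes carried array-to-array patterns described further on. Only windows that hold the letters marked below could be shown, so the presence of these letters was fixed by the choice. The windows are from RefSeq (GRCm38.p6), run from 250 bases before to 50 bases after a gene's start, and are read 5′ to 3′ on the gene's strand. In the windows of Gbp3 (chr3:142559794-142560093, plus strand, the one of its 2 windows that holds the motif) and Ifit3 (chr19:34583279-34583578, plus strand), capitals mark GAAA, any 2 bases and GAAA again, the letters of an interferon-stimulated response element, on either strand. The 2 matches in Gbp3 overlap each other. In the window of Cry1 (chr10:85185005-85185304, minus strand), capitals mark CACGTG, the E-box that clock proteins can bind, which reads the same on both strands.
Gbp3: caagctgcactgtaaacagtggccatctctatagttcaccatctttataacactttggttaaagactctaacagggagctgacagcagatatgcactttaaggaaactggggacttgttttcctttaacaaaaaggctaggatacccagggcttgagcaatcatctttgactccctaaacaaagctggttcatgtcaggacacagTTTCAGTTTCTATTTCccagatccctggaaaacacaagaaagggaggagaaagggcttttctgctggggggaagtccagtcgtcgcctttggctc
Ifit3: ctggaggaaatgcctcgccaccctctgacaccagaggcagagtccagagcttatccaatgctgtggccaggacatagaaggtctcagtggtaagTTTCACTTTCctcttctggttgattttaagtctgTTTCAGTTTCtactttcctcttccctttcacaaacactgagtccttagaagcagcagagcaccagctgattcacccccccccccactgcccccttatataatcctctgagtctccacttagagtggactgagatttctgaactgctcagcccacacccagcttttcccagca
Cry1: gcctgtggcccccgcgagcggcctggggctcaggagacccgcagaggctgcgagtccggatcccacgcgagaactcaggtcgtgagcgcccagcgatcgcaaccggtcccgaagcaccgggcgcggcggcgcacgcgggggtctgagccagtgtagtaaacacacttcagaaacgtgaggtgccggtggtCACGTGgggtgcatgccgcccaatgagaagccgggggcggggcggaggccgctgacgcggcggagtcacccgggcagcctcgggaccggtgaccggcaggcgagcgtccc
The interferon letters stood in 3.44% of all 32851 promoter windows in the table and the E-box in 7.15%, or in at least 1 window of 3.99% and 8.09% of 27025 genes. Of the type I interferon genes Present on all 6 arrays, 10 of 14 had a window in the table and 7 of these held the interferon letters: Bst2, Eif2ak2, Ifih1, Ifit1, Ifit3, Ifitm3 and Rsad2. Of the clock genes Present on all 6, 9 of 11 had a window and 3 held CACGTG: Cry1, Per1 and Tef. A match describes the letters and is not a shown binding site.

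The 6 arrays were alike in their overall measures. Between 54.1% and 55.7% of probe sets were Present on an array, and the median signal was 153.1 to 181.6. The lowest median was on male array 3, which also had the highest hybridization controls (mean log2 of 11.64, against 11.29 to 11.47 on the other arrays) and the highest log2 ratio of the 3′ to the 5′ probe set of Actb (2.38, against 1.74 to 2.13), a measure of how intact the RNA is. Correlations of log2 signal between arrays, over probe sets, were 0.974 to 0.978 within a sex and 0.968 to 0.977 between the sexes. The sex labels matched Xist, the RNA that silences an X chromosome in females, which read 8572, 8660 and 8095 on the female arrays and 196.0, 261.9 and 117.6 on the male arrays. For the genotype there was no such check. The probe set for mouse Apoe read 4.4 to 6.6 on the female arrays and 2.0 to 7.0 on the male arrays and was Absent on all 6.

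The tissue label was checked against 5 epithelial markers, and 4 of them were Present on all 6 arrays. Ttr, the thyroid hormone carrier that the epithelium secretes, read 20263, 18584 and 19040 on the female arrays and 17453, 18150 and 21384 on the male arrays. Its 2 other probe sets read 14731 to 18786 on the female arrays and 13956 to 19902 on the male arrays. Kl, whose product klotho is shed into the fluid, read 13642, 12778 and 12940 on the female arrays and 9573, 11621 and 12900 on the male arrays. The lowest value, on male array 1, made Kl the most uneven of the 4 (SD 0.18). Its dim other probe set, Marginal on female array 6, did not share that low value. It read 214.7, 178.9 and 190.4 on the female arrays and 218.5, 217.7 and 244.4 on the male arrays. Folr1, the receptor that carries folate into the fluid, read 10522, 9975 and 9180.0 on the female arrays and 9905, 9511 and 10234 on the male arrays (SD 0.071). Aqp1, the water channel of the apical membrane, read 4969, 3972 and 4358 on the female arrays and 4709, 3944 and 3894 on the male arrays. In order of brightness Ttr stood at rank 3, Kl at 40, Folr1 at 80 and Aqp1 at 417 of 6634 genes. In the brightest probe set of each of the 4 the sexes overlapped. No probe set was named Enpp2 by the annotation used here, so the fifth marker was not analysed here.

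**Figure D1:**
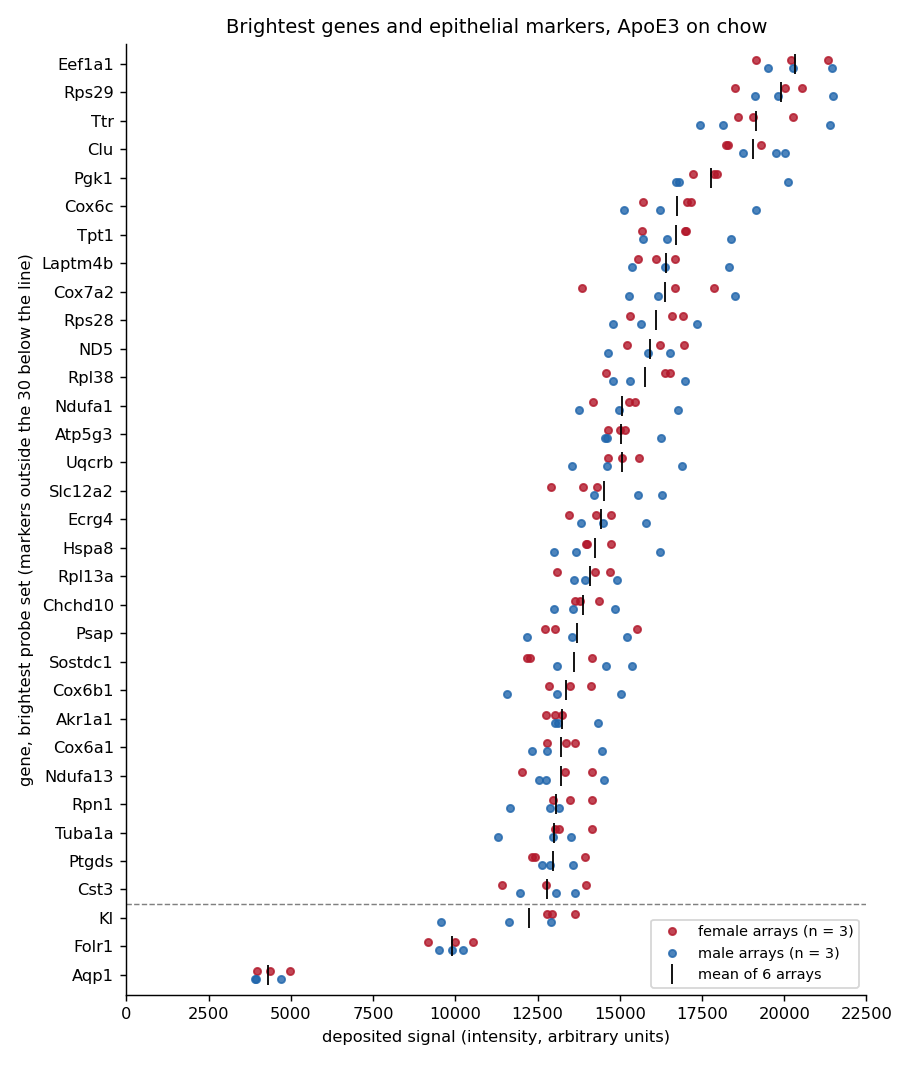
Signal of the brightest probe set of each of the 30 brightest genes, in order from the top, and of the 3 epithelial markers outside the 30 (below the dashed line). The x axis is the deposited signal from 0 in arbitrary units. Each point is 1 array, female red and male blue (n = 3 each), and black ticks are means of the 6 arrays. Female and male arrays overlap for all 30, and male array 3 is the highest point in 23.

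Of the 30 brightest genes, 7 were on the respiratory chain list, 4 on that of secreted and carrier proteins, 3 on the ribosome list and 3 on the epithelial list. Eef1a1, which brings aminoacyl-tRNA to the ribosome, led with signals of 21320, 20201 and 19135 on the female arrays and 19518, 20277 and 21455 on the male arrays. The ribosomal protein gene Rps29 and Ttr followed. Further ribosomal protein genes among the 30 were Rps28, Rpl38 and Rpl13a, and Tpt1, a growth-related protein, was also among them. Genes of mitochondrial proteins were Cox6c, Cox7a2, Cox6b1 and Cox6a1 of cytochrome oxidase, Ndufa1, Ndufa13 and the mitochondrially encoded ND5 of complex I, Uqcrb of complex III, Atp5g3 of ATP synthase and Chchd10. Pgk1, an enzyme of glycolysis, and Akr1a1, an aldehyde reductase, were also in the 30.

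Clu, a chaperone of extracellular proteins and a carrier of lipids, read 19284, 18294 and 18224 on the female arrays and 18744, 19747 and 20019 on the male arrays, the smallest spread of the 30 (SD 0.057). Ptgds, a prostaglandin synthase that also carries lipids in the fluid, read 13942, 12425 and 12340 on the female arrays and 12638, 12863 and 13569 on the male arrays. Cst3, an inhibitor of cathepsins, read 13976, 12745 and 11413 on the female arrays and 11975, 13066 and 13628 on the male arrays. Sostdc1, a secreted antagonist of BMP and Wnt signals, and Ecrg4, a peptide precursor, were also among them. Slc12a2, the sodium, potassium and chloride cotransporter NKCC1 of the apical membrane, read 13882, 14311 and 12893 on the female arrays and 14223, 15544 and 16281 on the male arrays. The others were the lysosomal genes Psap and Laptm4b, the chaperone Hspa8, the oligosaccharyltransferase subunit Rpn1 and the tubulin Tuba1a.

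The order near the limit of 30 was close. Cst3 had a mean of 12800 at rank 30, and the genes just outside were Hspa5 at 12747, Cox4i1 at 12569 and Atp5h at 12574. The 30 genes held 5.17% to 5.73% of the summed signal of all 6634 genes, with the highest share on male array 3. Their SDs ran from 0.057 to 0.15, and for all 30 the brightest array was at most 1.34-fold above the dimmest. Of the 30, 10 were read by probe sets with the suffix x_at, which hold probes that can match other transcripts, as against 5.98% of all genes. Whether this raises the signals of ribosomal genes such as Rps29 was not tested.

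Over the 22626 probe sets that are not controls, 10809 (47.8%) were Present on all 6 arrays and 8069 (35.7%) were Absent on all 6. The remaining 3748 (16.6%) had mixed calls. Of 12393 genes, 6634 (53.5%) had a probe set Present on all 6, 3740 (30.2%) were Absent on all 6 in every probe set, and 2019 fell between. Mean signals had a median of 568.7 in the Present group and 38.4 in the Absent group. The ranges overlapped: 17 Absent probe sets were brighter than the Present median and 6 Present ones dimmer than the Absent median.

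Over all probe sets that are not controls, the brightest one Absent on all 6 had a mean of 1526. Among those that name 1 gene, the brightest were those of Ppp2r1a, a phosphatase subunit (mean 1209), Cox8c (848.3) and Myo18a (737.1). They were followed by Cotl1, Zdhhc6, Ippk, Il17re, Abcc5, Ssna1 and Tspan33, at means down to 630.3. Among probe sets that name 1 gene, the dimmest Present on all 6 were those of B3galt2 (31.2), Ttc14 (31.4), Ms4a4c, Arhgap6 and Psme3. Those of Ppm1a, E330034G19Rik, Nebl, Rac1 and Robo1 (45.4) came next. An Absent call of one probe set is not the absence of a gene. Of 4956 genes with more than 1 probe set, 1384 (27.9%) had one Present on all 6 and another Absent on all 6. The gap was largest for Itm2b, a membrane protein processed in the amyloid pathway, at a mean of 10500 in the Present probe set and 10.8 in the Absent one. Gnas, the stimulatory G protein subunit, had means of 8558 and 5.57, and Rps18 12324 and 17.0. Cox5b, App, Cab39l, Cct4, Tpt1, Ddx17 and Rpsa showed gaps of 7.91 to 8.50 on the log2 scale. A Present call had its limits too. Uty lies on the Y chromosome, which females lack, yet its probe set was called Present on the 3 female arrays at signals of 37.4 to 43.4.

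Gene lists for the cell types and functions of the tissue, 32 with 605 genes on the array, showed which programmes were detected throughout. All 43 genes of the respiratory chain were Present on all 6 arrays, as were all 28 of the cytosolic ribosome, 29 of the proteasome and 31 of the lysosome, against 53.5% of all genes. Male array 3 was highest for 29 of the 43 respiratory chain genes, against 20.5% of the 6634 genes. Male array 2 was lowest for 29 of the 43, against 22.6%. The epithelial list had 20 of 21 genes Present on all 6 and 1, Wdr86, Absent at 470.8 to 637.9. Beside the markers above, the brightest were Slc12a2 and Sostdc1, with Slc4a10, a sodium bicarbonate transporter, at 9980, 10400 and 10763 on the female arrays and 10952, 10621 and 13494 on the male arrays. Igfbp2, a binding protein for insulin-like growth factors, read 10478 to 12508 on the female arrays and 9127 to 11103 on the male arrays. Kcne2, a potassium channel subunit of the apical membrane, read 10222 to 11398 on the female arrays and 8337 to 10579 on the male arrays. The 20 genes had a median SD of 0.14, close to the 0.15 of all 6634 genes, and none ranged 2-fold between arrays.

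**Figure D2:**
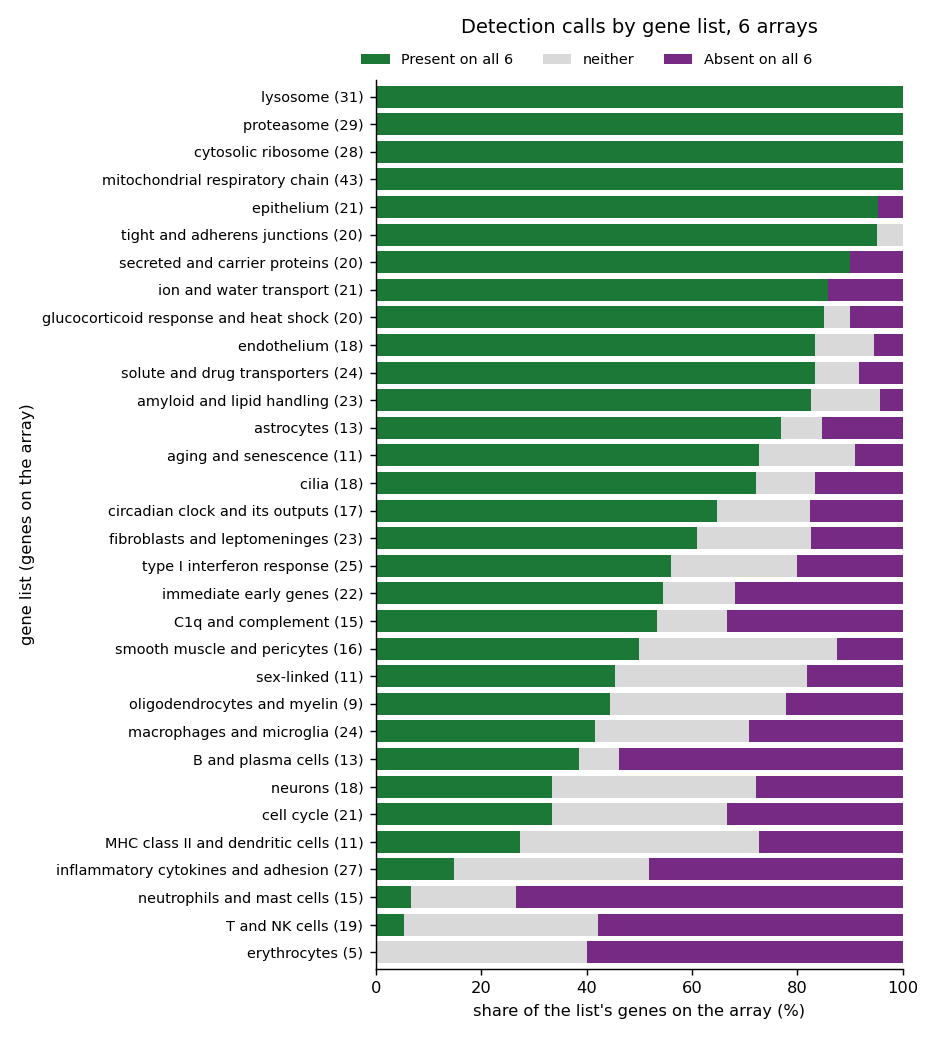
Share of each list's genes on the array with a probe set Present on all 6 arrays (green), with all probe sets Absent on all 6 (purple) and with neither (grey). The x axis is percent, and the number of genes on the array stands beside each list's name. The respiratory chain, ribosome, proteasome and lysosome lists reach 100% Present and the epithelial list 95.2%, while the lists for erythrocytes, T and NK cells, and neutrophils and mast cells lie between 0% and 6.67%.

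Transporters that make and condition the fluid were mostly detected. Of the ion and water transport list, 18 of 21 genes were Present on all 6 and 3 were Absent, the channels Clcn2, Kcna1 and Kcna3. Its brightest members after Slc12a2 were Atp1b1, a subunit of the sodium pump (mean 12208), Slc4a10 and Kcne2. Carbonic anhydrases, which make bicarbonate, were read at means of 8584 for Car2, 6797 for Car12 and 4105 for Car14, and at 147.9 for Car4. Of the solute and drug transporters, 20 of 24 were Present on all 6. They included Slco1c1, which carries thyroxine (mean 7322), the copper transporter Slc31a1 (5588) and the vitamin C transporter Slc23a2 (5231), while Slc7a5 and Slc6a13 were Absent. The most variable of them were Stra6, the receptor for retinol-binding protein, at 303.4, 268.3 and 376.4 on the female arrays and 376.6, 410.4 and 175.7 on the male arrays, and Tfrc, the transferrin receptor, at 900.7, 653.6 and 1378 on the female arrays and 714.4, 817.5 and 756.4 on the male arrays.

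Junction genes were Present on all 6 for 19 of 20 members, with Ctnnb1, Ctnna1, Cldn2 and Dsp brightest. Only Cdh3, a cadherin, had mixed calls. The ciliary list had 13 of 18 Present on all 6, among them Tuba1a, Rsph9, Ift57 and Rsph1, while Rfx2, Dnah1 and Tekt2 were Absent. Of the list of secreted and carrier proteins 18 of 20 were Present, and the iron carrier Lcn2 was Absent beside mouse Apoe. The list for amyloid and lipid handling had 19 of 23 Present. App, the amyloid precursor, read 9939, 10182 and 10539 on the female arrays and 10079, 9508 and 10472 on the male arrays, and beside mouse Apoe no gene of the list was Absent on all 6. In the aging list 8 of 11 were Present on all 6. The cell cycle inhibitor Cdkn1a, often used as a senescence marker, was Absent on all 6, and Cdkn2a was Present on 1 array. Of 21 cell cycle genes 7 (33.3%) were Present on all 6, against 53.5% of all genes, with Pcna (mean 2163) and Ccnd2 brightest. Another 7 (33.3%) were Absent on all 6, near the 30.2% of all genes, among them Mki67, Aurka, Aurkb and Birc5. The list for glucocorticoid response and heat shock had 17 of 20 Present, led by the chaperones Hspa8 and Hsp90aa1 (mean 10063), the kinase gene Sgk1 (6481) and Hspd1 (3845).

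Immune genes were detected in part. Of 24 macrophage genes, 10 (41.7%) were Present on all 6, against 53.5% of all genes. Another 7 (29.2%) were Absent on all 6, near the 30.2% of all genes, and 7 were mixed. Csf1r, the receptor that macrophages need to survive, read 2640, 2007 and 2110 on the female arrays and 1827, 2207 and 1723 on the male arrays. Lyz2, lysozyme, read 1587, 1273 and 928.0 on the female arrays and 862.4, 701.6 and 840.8 on the male arrays. Adgre1 and Laptm5 followed in brightness, while Aif1, Cd14, Cd163, Cybb, Itgam and Tmem119 were Absent on all 6. Of the C1q and complement list, 8 of 15 (53.3%) were Present on all 6, the same share as over all genes. C1qb read 1087, 895.7 and 775.3 on the female arrays and 701.0, 1179 and 512.4 on the male arrays, and C1qa was Absent at 177.3 to 377.8. Of 11 genes for MHC class II and dendritic cells 3 (27.3%) were Present on all 6, H2-Aa (mean 3870), H2-Eb1 (1463) and Cd74 (616.7).

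T and NK cell genes were largely undetected. Over all genes 53.5% were Present on all 6 and 30.2% were Absent on all 6. Of 19 genes of T and NK cells, only Prf1, the pore-forming perforin, was Present on all 6, at 110.1 to 201.5. The T cell receptor genes Cd3d and Cd3e and the coreceptors Cd4 and Cd8b1 were among 11 (57.9%) Absent on all 6. The B and plasma cell list had 5 of 13 (38.5%) Present on all 6 and 7 (53.8%) Absent on all 6. Those Present were Xbp1, a factor that other secretory cells also use (mean 5206), Prdm1, Jchain, Ms4a1 and Ebf1. Neutrophil and mast cell genes had 1 of 15 (6.67%) Present on all 6, the granule gene Ngp, and 11 (73.3%) Absent. The erythrocyte list had 0 of 5 Present on all 6 and 3 (60%) Absent. Of 27 inflammatory cytokines and adhesion genes 4 (14.8%) were Present on all 6: Vcam1 (mean 5807), Nfkbia (4511), Tlr2 and Icam1. The 13 (48.1%) Absent on all 6 included Ccl3, Ccl4, Ccl5, Cxcl1, Cxcl10 and Madcam1.

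Lists for stroma and vessels had shares Present on all 6 of 50% to 83.3%, against 53.5% of all genes. The endothelial list had 15 of 18 genes Present on all 6, led by Emcn (mean 1047), Kdr, Plvap and Flt1, while Pecam1 was Absent at 206.8 to 359.9. Plvap forms the diaphragms of fenestrated capillaries. Of the smooth muscle and pericyte list 8 of 16 were Present on all 6, a share near that of all genes, with Rgs5 brightest at a mean of 5783. Of the list for fibroblasts and leptomeninges 14 of 23 (60.9%) were Present on all 6, led by Igf2 (8108), Ogn, Dcn and Col8a1. Igf2 is also on the epithelial list.

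Genes of neighbouring brain tissue were mixed. The neuronal list had 6 of 18 Present on all 6, the brightest being the noncoding RNA Meg3 (mean 1100) and the synaptic Snap25, at 489.5, 294.3 and 257.2 on the female arrays and 265.7, 314.0 and 227.1 on the male arrays. Camk2a, Rbfox3, Syn1, Tubb3 and Nrgn, 27.8% of the list, were Absent on all 6, near the 30.2% of all genes. The neuronal share Present on all 6 was 33.3%, against 53.5% of all genes. Of the myelin list 4 of 9 were Present, led by Mbp at 1907, 2261 and 2133 on the female arrays and 1681, 1486 and 2015 on the male arrays, while Mag and Mog were Absent. The shares of the myelin list were 44.4% Present and 22.2% Absent on all 6. The astrocyte list had 10 of 13 (76.9%) Present on all 6, with Glul, a gene of other cells too, brightest at 8826. The defining astrocyte genes Gfap and Slc1a2 were Absent on all 6, at 95.5 to 113.4 and 6.0 to 47.6. How much RNA of neighbouring tissue the samples held was not tested.

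Differences between the 6 arrays were small for most genes. The SD of log2 signal had a median of 0.15 over 6634 genes, and 337 genes (5.08%) had a highest array at least 2-fold above the lowest. It fell with brightness, with a median SD of 0.11 in the brightest of 10 equal bins of genes and 0.24 in the dimmest. Among the 2000 brightest genes the steadiest was Emc3, part of the machine that inserts membrane proteins, at 2196, 2202 and 2237 on the female arrays and 2216, 2161 and 2174 on the male arrays (SD 0.018). Atxn7l3b, Tkt, Smarca2, Gnas, Ptp4a2, Zfand6, Tsn, Cnep1r1 and Hnrnph1 came next, with SDs of 0.025 to 0.036. Gnas illustrates the role of the probe set, being among the steadiest genes in its bright probe set and Absent in another.

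The 30 genes of largest spread had SDs of 0.56 to 2.98. They were chosen for that spread, so the values are a description with no test. Xist and Uty, the sex-linked pair, came first. For 11 of the 30 the 3 female arrays lay above the 3 male arrays, as for 8.2% of all genes, and for 2 below, as for 7.4%. Female array 4 was the highest array for 12 of the 30 and for 18% of all genes. The members at the limit were Dct and Cav2 (SD 0.56 each) inside and Moxd1 (0.55), BC023105, Apod and Ccnd2 outside. Leaving out 1 array in turn kept 20 to 27 of the 30, the fewest without female array 4.

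**Figure D3:**
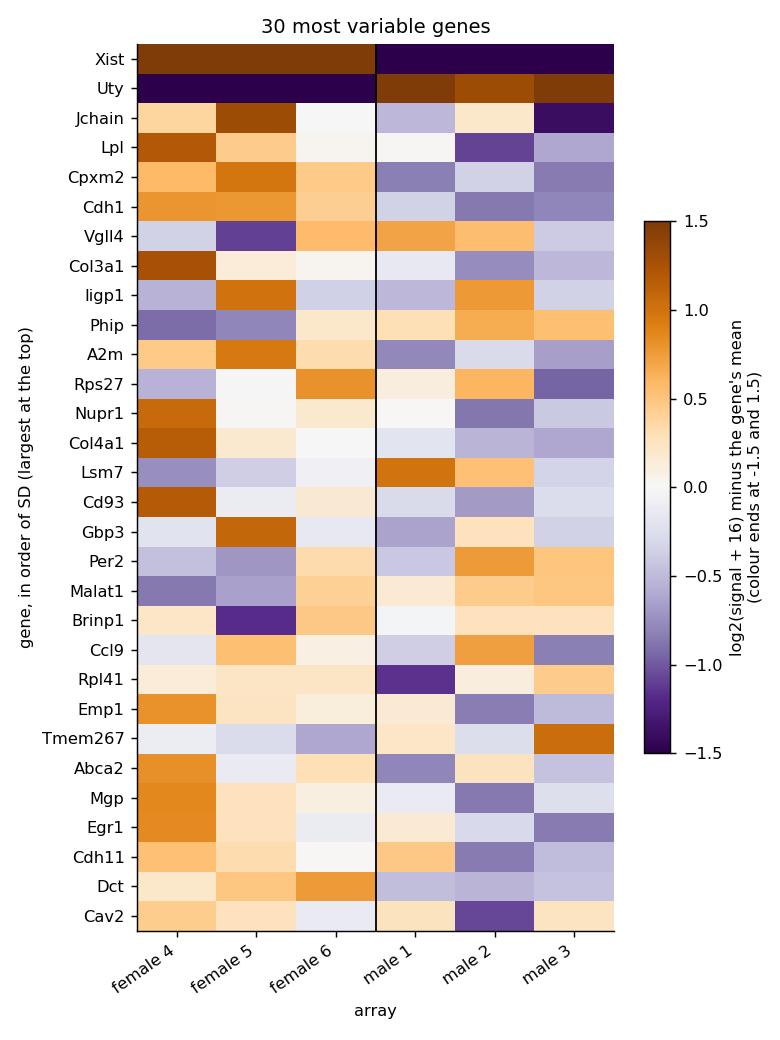
Heat map of the 30 genes with the largest SD, in that order from the top. Columns are the arrays, female 4 to 6 and male 1 to 3, and colour is log2(signal + 16) minus the gene's mean, ending at 1.5 in either direction, which Xist and Uty exceed. Col3a1, Col4a1, Cd93, Nupr1 and Mgp are highest on female array 4, and Iigp1 and Gbp3 are highest on female array 5 and next highest on male array 2.

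A block of stromal and vascular genes was high on female array 4. Col3a1, a fibrillar collagen of connective tissue, read 547.2, 241.9 and 224.1 on the female arrays and 197.6, 123.9 and 149.1 on the male arrays. Col4a1, a collagen of basement membranes, read 1402, 705.2 and 616.6 on the female arrays and 540.1, 421.0 and 398.8 on the male arrays. Cd93, a surface protein of endothelial cells, read 577.9, 227.3 and 281.3 on the female arrays and 200.4, 147.8 and 202.5 on the male arrays. For all 3 genes female array 4 was the highest, but by less than the limit for outliers used in the closing section. Mgp, a matrix inhibitor of calcification, read 8082, 5350 and 4772 on the female arrays and 4062, 2428 and 3751 on the male arrays. Lpl, the lipoprotein lipase of vessel walls, read 1681, 996.5 and 741.1 on the female arrays and 734.7, 334.6 and 470.1 on the male arrays. Nupr1, Emp1, Cdh11 and Cav2 were also highest on female array 4, and with Lpl and Mgp lowest on male array 2. Cdh11 and Cav2 did not stand out on female array 4. Cdh11 read 986.2 there and 946.3 on male array 1. Cav2 read 606.3, 531.4 and 402.5 on the female arrays and 530.6, 201.5 and 524.9 on the male arrays. Without male array 2 the SD of Cav2 fell from 0.56 to 0.21.

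Female array 4 also stood highest in much of several lists. It was highest for 12 of the 14 detected genes of fibroblasts and leptomeninges, 7 of 8 of smooth muscle and pericytes, 10 of 15 of endothelium and 7 of 10 of macrophages, against 18% of all genes. Mean deviations from the 6-array mean on that array were 0.42 for fibroblasts, 0.35 for smooth muscle and pericytes, 0.27 for endothelium and 0.44 for macrophages on the log2 scale. For the fibroblast list they were 0.13 and 0.017 on female arrays 5 and 6, and -0.036, -0.27 and -0.26 on male arrays 1, 2 and 3. Its summed signal ran from 20323 to 25428 on the female arrays and from 17819 to 20486 on the male arrays. That of smooth muscle and pericytes ran from 9881 to 14986 on the female arrays and from 8194 to 10284 on the male arrays, and that of macrophages from 5300 to 7478 on the female arrays and from 4546 to 5420 on the male arrays. The pericyte gene Rgs5 read 9160, 5518 and 5343 on the female arrays and 5513, 4399 and 4765 on the male arrays. It was also highest in lists of other kinds, for 12 of 18 genes for secreted and carrier proteins, 3 of 3 for MHC class II and dendritic cells, 10 of 19 for amyloid and lipid handling, 15 of 31 of the lysosome and 9 of 20 epithelial genes. No test set one list against another. The epithelial list deviated by 0.063 on female array 4 and by at most 0.067 in either direction on any of the 6, and its summed signal ran from 166592 to 179262 on the female arrays and from 164310 to 183863 on the male arrays. Whether the captured regions differed in their share of stroma was not tested.

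**Figure D4:**
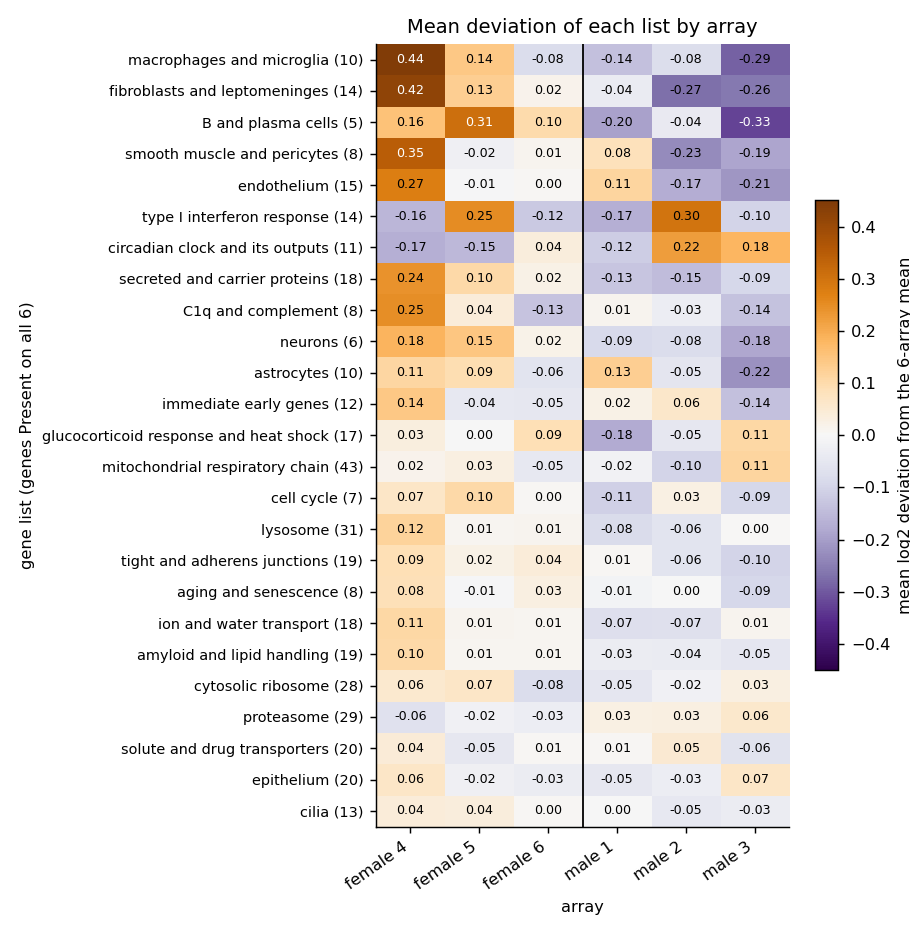
Mean log2 deviation of each list's genes from their 6-array mean, for lists with at least 5 genes Present on all 6 other than the sex-linked one, ordered by range. Columns are female arrays 4 to 6 and male arrays 1 to 3, and the number of genes stands beside each name. Stromal, vascular and macrophage lists are highest on female array 4 (0.27 to 0.44), the interferon list on male array 2 and female array 5 (0.30 and 0.25) and the clock list on male arrays 2 and 3 (0.22 and 0.18).

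Interferon-induced genes followed another pair of arrays. Iigp1, a GTPase that attacks the vacuoles of parasites, read 361.2, 1087 and 413.9 on the female arrays and 373.3, 921.6 and 420.1 on the male arrays. Gbp3, a guanylate-binding protein, read 319.1, 801.7 and 334.1 on the female arrays and 232.0, 448.3 and 288.1 on the male arrays. Ifit3, which binds viral RNA in a complex with Ifit1, read 570.6, 1017 and 633.2 on the female arrays and 533.4, 1195 and 652.1 on the male arrays. Ifit3 was on the list of type I interferon genes, and Iigp1 and Gbp3 were not. Female array 5 and male array 2 stood highest in each of the 3. These arrays were the top pair for 8 of the 14 type I interferon genes Present on all 6, against 6.47% of all genes. This pair too was picked from the values of these same arrays, so the count has no test. The list deviated by 0.25 and 0.30 on the log2 scale on these arrays and by -0.10 to -0.17 on the other 4. Of the list's 25 genes 5 (20%, against 30.2% of all genes) were Absent on all 6: Ifi35, Ifit2, Mx2, Oas1a and Oas3. The promoter windows of Gbp3 and Ifit3 printed above belong to genes of this pattern. They were chosen as windows that hold the motif, so its presence in them is not a result about the pattern.

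Further immune genes were among the 30 of largest spread. Jchain, which joins the chains of secreted IgA and IgM, read 177.5, 354.8 and 131.2 on the female arrays and 88.1, 154.9 and 40.8 on the male arrays. Female array 5 was highest here too, with female array 4 after it. The chemokine Ccl9 was, like Iigp1 and Gbp3, not on the interferon list. It read 107.6, 188.9 and 133.2 on the female arrays and 93.0, 218.1 and 63.4 on the male arrays. Male array 2 and female array 5 were again the top pair. The sexes overlapped for Iigp1, Gbp3, Ifit3, Jchain and Ccl9.

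Clock genes varied by yet another order. The clock is a feedback loop in which Per and Cry proteins repress their own transcription over a day. Per2 read 245.8, 206.1 and 438.3 on the female arrays and 255.0, 593.6 and 496.5 on the male arrays. Cry1 read 235.5, 215.0 and 230.0 on the female arrays and 326.7, 517.3 and 458.7 on the male arrays. Per3 read 294.6, 297.4 and 443.4 on the female arrays and 420.5, 498.2 and 524.4 on the male arrays. Male arrays 2 and 3 were the highest pair in all 3 genes, and for 5 of the 11 detected clock genes, against 6.57% of all genes. The pair was picked from the values of these same arrays, so the count is a description with no test. Dbp, an output gene driven by the clock, read 3042, 3395 and 3657 on the female arrays and 3728, 4169 and 3895 on the male arrays, while Nr1d2 and Rora had SDs of 0.10 and 0.099. Arntl was Present on 1 array and Nr1d1 was Absent on all 6. The hour at which each mouse was killed is not given in the sources used here, so its part in these values was not tested.

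Another set was low on female arrays 4 and 5. Phip read 157.7, 173.6 and 363.3 on the female arrays and 389.8, 506.6 and 465.7 on the male arrays. Malat1, a noncoding RNA retained in the nucleus, read 195.9, 230.8 and 500.9 on the female arrays and 413.0, 510.7 and 525.4 on the male arrays. Both were lowest on female arrays 4 and 5. The cytoskeletal Actb, often used as a loading standard and looked at after its values were seen, read 4171, 4330 and 7627 on the female arrays and 8540, 8638 and 5314 on the male arrays. Its lowest 3 arrays, female 4, female 5 and male 3, were those with the highest 3′ to 5′ ratio of Actb (1.94, 2.13 and 2.38 on the log2 scale, against 1.74 to 1.91 on the others), a ratio read from control probe sets for the same gene. The same ratio for Gapdh did not follow this order, at -0.24 on female array 4, -0.080 on female array 5 and 0.070 on male array 3, against -0.12 on female array 6 and -0.091 and -0.32 on male arrays 1 and 2. The part of RNA quality in these values was not tested.

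Ribosomal protein genes were steady as a list, with a median SD of 0.093 over 28 genes, but Rpl41 was an exception. The probe set that stood for it was the brightest by mean log2 signal (SD 0.58). It read 7299, 7809 and 7834 on the female arrays and 2973, 7172 and 9135 on the male arrays, with male array 1 alone low. Another probe set of the gene had a higher mean signal, 9569 against 7037, and an SD of 2.20. It read 13752, 14045 and 1928 on the female arrays and 359.7, 12662 and 14670 on the male arrays, low on female array 6 as well. The gene's other 2 probe sets Present on all 6 were dim, and male array 1 was the lowest on neither. The first read 59.1, 45.3 and 82.1 on the female arrays and 47.4, 89.6 and 124.7 on the male arrays. The second read 127.6, 179.9 and 124.5 on the female arrays and 127.3, 151.3 and 177.9 on the male arrays. Rps27, which the list did not hold, read 187.2, 276.8 and 501.8 on the female arrays and 305.4, 433.5 and 137.1 on the male arrays.

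Other members of the 30 had patterns of their own. Vgll4, a cofactor of TEAD transcription factors, was lowest on female array 5 (85.3), with 149.4 to 337.9 on the others. Brinp1 was low on female array 5 alone (138.1, with 325.5 to 469.0 on the others). Tmem267 was high on male array 3 alone (581.6, with 173.3 to 320.2 on the others). Lsm7, of the spliceosome, was highest on male arrays 1 and 2 (915.2 and 660.9, with 263.5 to 432.7 on the others), and the lipid transporter Abca2 was highest on female array 4 (631.4) and lowest on male array 1 (196.9). Egr1, an immediate early gene, read 543.4, 355.9 and 270.0 on the female arrays and 329.8, 235.8 and 155.8 on the male arrays. Of 22 immediate early genes 12 (54.5%) were Present on all 6, and Arc, Atf3, Egr3, Fos, Fosb, Junb and Myc (31.8%) were Absent. Both shares were near those of all genes, 53.5% and 30.2%.

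Further probe sets that the ranking did not use gave a partial check. Only 3 of the 30 genes had another probe set Present on all 6 arrays, 5 probe sets in all, and 4 of these had an SD among the highest 10% over all genes (above 0.29). For Iigp1 the other probe set read 206.4, 855.0 and 187.9 on the female arrays and 216.7, 433.3 and 181.3 on the male arrays, high on the same arrays. For Malat1 the other probe set read 153.1, 145.6 and 229.9 on the female arrays and 236.3, 320.7 and 210.3 on the male arrays, again lowest on female arrays 4 and 5. The remaining 3 belong to Rpl41. For the other 27 genes the spread rests on 1 probe set.

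Sex was the only label that differed among the 6 arrays. Females and males did not overlap for 1035 of the 6634 genes Present on all 6 (15.6%), and 24 genes passed the test below. Sex coincided with array number (4 to 6 female, 1 to 3 male), so any order of processing that followed the numbers cannot be told apart from it. Of 7609 genes with a probe set Present on at least 3 of the 6 arrays, 24 (0.315%) passed an adjusted p of 0.05 in limma, 16 (0.21%) higher and 8 (0.105%) lower in females. Genes that passed lay on the X in 4 cases, on the Y in 3 and elsewhere in 17. At an unadjusted p under 0.05 there were 751 genes. All values below are female minus male log2 differences ± SE, with Benjamini-Hochberg adjusted p from limma and 3 arrays of each sex.

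Among the genes tested, sex-linked ones marked the extremes. Probe sets that do not name 1 gene were not in this test. One that names none read 12.9, 13.5 and 10.4 on the female arrays and 1954, 1812 and 2588 on the male arrays. Xist was higher in females by 5.41 ± 0.22 (adjusted p = 5.85e-06). The Y-linked translation factor Eif2s3y read 19.2, 8.4 and 15.1 on the female arrays, where it was Absent, and 455.2, 469.2 and 566.3 on the male arrays. Its fitted difference was -4.09 ± 0.20. The Y-linked genes Uty and Kdm5d, of the histone demethylase family, had fitted differences of -3.20 ± 0.18 and -2.24 ± 0.22. Female signals were low, with Kdm5d Absent on female arrays 4 and 5 and Uty Present at 37.4 to 43.4, so the sizes of all 3 depend on the amount added to each signal. With 1 and with 64 in place of 16 they were -5.09 and -2.84 for Eif2s3y, -3.60 and -2.44 for Uty, and -2.58 and -1.63 for Kdm5d. Kdm6a, the X-linked partner of Uty, read 620.4, 555.9 and 590.3 on the female arrays and 382.7, 378.3 and 371.6 on the male arrays (0.62 ± 0.11, adjusted p = 0.0295). Eif2s3x, the X-linked partner of Eif2s3y, was higher in females by 0.51 ± 0.091. These partners escape silencing on the inactive X in mice.

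Among autosomal genes, Cdh1, the cadherin of epithelial junctions, read 893.1, 879.0 and 689.0 on the female arrays and 396.3, 272.0 and 286.1 on the male arrays (1.33 ± 0.15, adjusted p = 0.001). Ccnd2, a cyclin of the G1 phase, read 2071, 2139 and 2141 on the female arrays and 1182, 937.5 and 1120 on the male arrays (0.97 ± 0.098, adjusted p = 0.000301). Its 6 other probe sets differed by -0.37 to 1.14, and the 3 with the largest differences, of 0.78 to 1.14, were Present on all 6 arrays. Trpv4, a calcium-permeable cation channel, read 1183, 939.6 and 1095 on the female arrays and 682.5, 710.1 and 689.2 on the male arrays (0.61 ± 0.10, adjusted p = 0.0295). The 3 were picked among genes that passed, and in none of them did the sexes overlap. Over all genes Present on all 6, the sexes did not overlap for 15.6%.

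Others higher in females were Bgn, biglycan (0.91 ± 0.12), Cpxm2 (1.35 ± 0.17), Fbln5 (0.73 ± 0.12), Mmp2 (0.88 ± 0.16), A2m (1.16 ± 0.18) and Col18a1 (0.59 ± 0.11). A2m, a broad protease inhibitor, read 4195, 5904 and 3798 on the female arrays and 1760, 2486 and 1914 on the male arrays. Bgn, which lies on the X, read 2107, 1669 and 1775 on the female arrays and 967.9, 1115 and 852.9 on the male arrays. Of 18 tested genes for secreted and carrier proteins 1 passed, A2m. Of 16 tested genes of fibroblasts and leptomeninges none passed, with a median difference of 0.33 against 0.0081 over all genes. That list's mean deviation was higher on each female array than on each male array, at 0.017 to 0.42 against -0.27 to -0.036. Several lists of other kinds, named below, had the same order. The part of stroma in these differences was not tested. Dct, an enzyme of melanin synthesis, read 562.8, 691.6 and 837.3 on the female arrays and 348.2, 333.2 and 353.3 on the male arrays (0.97 ± 0.14, adjusted p = 0.00687). Gpr162, Pdia6 and Upp1 also passed. Probe sets of a gene did not always match in size: Bgn differed by 1.43 and 1.86 in its 2 others, and Mmp2 by 0.23 in its other one, which was Present on all 6 arrays.

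Genes lower in females included a pair known from neutrophils. S100a8, part of calprotectin, read 109.2, 139.3 and 53.7 on the female arrays and 349.7, 583.0 and 480.5 on the male arrays (-2.11 ± 0.29, adjusted p = 0.0295). Ngp read 134.7, 192.1 and 145.4 on the female arrays and 287.1, 361.1 and 284.7 on the male arrays (-0.92 ± 0.17, adjusted p = 0.0436). S100a9, the partner of S100a8, differed by -1.75 ± 0.32 and did not pass (adjusted p = 0.074). Of the 15 neutrophil and mast cell genes 4 were tested and 11 were Absent on all 6 arrays, among them Mpo, Elane and Ltf, so the part of blood neutrophils left in the tissue was not tested. Cry1, with its values given above, was lower in females by 0.87 ± 0.16 on the log2 scale (adjusted p = 0.0436). Tcl1b3, read by a probe set with the suffix x_at, was at 1122, 1050 and 1105 on the female arrays and 2026, 2195 and 2258 on the male arrays (-0.97 ± 0.085, adjusted p = 8.92e-05), and Sult1c2, a sulfotransferase, was lower by 0.69 ± 0.12 on the log2 scale.

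None of 20 epithelial genes, 43 of the respiratory chain, 28 of the ribosome, 29 of the proteasome or 31 of the lysosome passed the test, with median differences between -0.090 and 0.097. The summed signals of the proteasome list did not overlap, at 68664 to 70558 on the female arrays and 72089 to 76432 on the male arrays. The lysosome list's mean deviation was higher on each female array than on each male array, at 0.0090 to 0.12 against -0.082 to 0.00070. This order also held for the lists of junctions, secreted and carrier proteins, cilia, neurons, and amyloid and lipid handling, among others. Gene by gene, females and males did not overlap for 15.6% of the 6634 genes Present on all 6. With 3 arrays of each sex, the number of arrays limits the precision. Leaving out 1 array gave 10 to 27 calls: 13 without male array 2, 10 without male array 3 and 14 without female array 4. In each alternative setting in which they were tested, 7 of the 24 genes passed: Eif2s3y, Uty, Xist, Tcl1b3, Kdm5d, Ccnd2 and Cdh1. The other 17 lost the call in at least 1 setting, with the same direction.

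**Figure D5:**
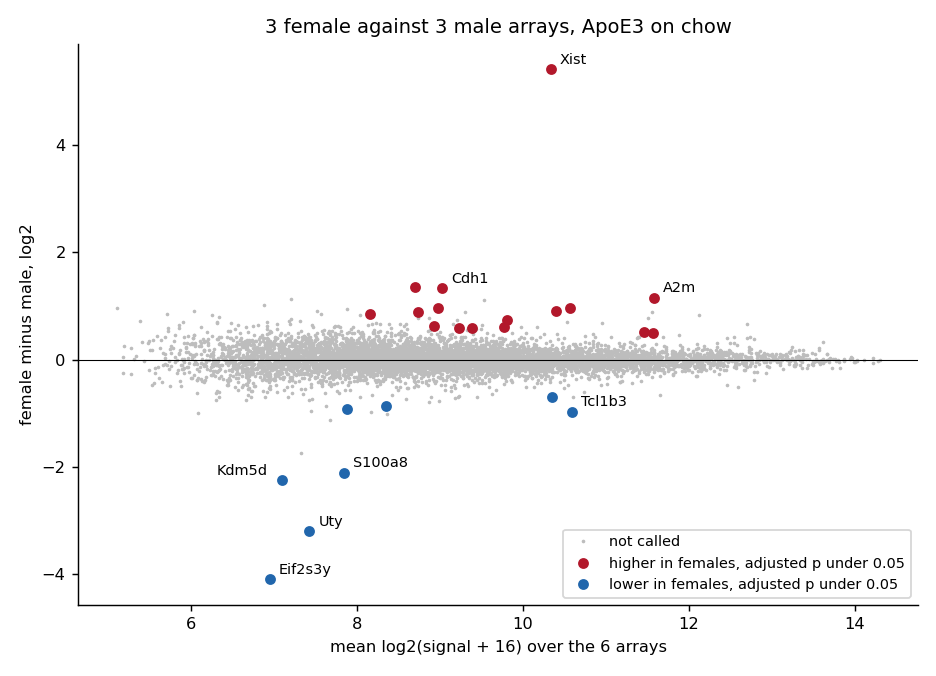
Female minus male difference in mean log2 signal (y axis) against mean log2(signal + 16) over the 6 arrays (x axis) for 7609 genes. Red points are the 16 genes higher and blue points the 8 genes lower in females at an adjusted p under 0.05 in limma, and grey points did not pass. Xist lies at 5.41 and Eif2s3y at -4.09, and 19 of the 24 called genes lie between -0.97 and 1.35.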

How the data were processed

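RNA samples of laser-captured choroid plexus from ApoE3 mice on normal chow were read on 6 arrays. The deposited intensity values (signals) were made by the authors with GCOS 1.4, per the submitters' processing notes, and had a trimmed mean near 500 on every array. No label or header gives the algorithm or further settings. Beside each signal the authors deposited a detection call and its detection p-value. 7 cells above 1 in the p-value columns of the 6 arrays were treated as missing. The arrays hold 22690 probe sets, of which 64 controls were left out. By the platform annotation 20380 of the remaining 22626 name 1 gene, 691 several and 1555 none. No per-sample column was without a sample label. The signals were not normalized again and were analysed as log2(signal + 16).

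Genes were ranked by mean and by SD of log2 signal. Females were set against males with limma 3.58.1 (R 4.3.3; lmFit, eBayes with trend and robust estimation) over 7609 genes, with Benjamini-Hochberg adjustment and a threshold of 0.05. The labels do not say that each array is a separate animal, so these p-values measure the spread between samples, which may be technical. The script was tested on simulated data. Tables were handled with pandas 2.3.3 in Python 3.11.15. Promoter windows were searched for the stated letters on both strands.

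The members, gene lists and rules were chosen with earlier results of these data known. Genes were named by rule: the markers and sex-linked genes, the 30 brightest, the 30 of largest SD, the 10 of smallest SD among the 2000 brightest, 10 probe sets at each edge of the calls, the 10 largest gaps between probe sets, and in each list the 4 brightest, 2 most variable and up to 6 Absent genes. For sex, the rule took up to 10 genes a direction by p. Genes outside it, such as Car2, Car12, Car14, Igfbp2, Per3, Actb, S100a9 and the called genes beyond the first 10, were chosen after their values were seen. Alternatives covered the detection threshold, the pseudocount, quantile normalization, the filter, the choice of probe set, the measure of spread, the settings of the test and leaving out each array. The SD relative to the running median of genes of like brightness was added after seeing the data.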

Additional observations from a re-analysis of the deposited data

Results flagged for a closer look

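For 252 genes named in the text, the highest or lowest of the 6 arrays was set against the gap to its nearest neighbour, and 17 genes had an array set apart by more than Dixon's limit for 6 values. Chance marks about 1 in 20 groups of this kind. Female array 4 stood apart as highest for Rgs5, at 9160 with 5518 next, and for Cd14 (220.8) and Myc (32.2), both Absent on all 6 arrays. Female array 5 was lowest for Brinp1 (138.1), and female array 6 for Cxcl10 (14.4). Male array 1 was lowest for Rpl41, at 2973 with 7172 next. Male array 2 was lowest for Kcne2 (8337) and Mag (25) and highest for Cd3d (16.5). Male array 3 was highest for Akr1a1 (14345), Atp5g3 (16258), Atp5h (14501), Nr1d2 (4147) and Slc4a10 (13494). It was lowest for Icam1 (174.3), Mmp2 (260.0) and Plvap (485.1). For Mmp2 this was the probe set Present on all 6 arrays. The Mmp2 probe set of the sex comparison read 299.2 on male array 3 and was lowest on male array 2 (233.1). Cd14, Myc, Cxcl10, Mag and Cd3d were Absent on all 6 arrays, so their values lie at background. No comparison was made on the 18 arrays of the other groups.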

How the results depend on the processing

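No paired analysis was possible because female and male arrays share no replicate number. Counting genes in place of probe sets gave 6634 Present and 3740 Absent on all 6 arrays. Of the 30 genes of largest SD, 12 remained with the median absolute deviation, 12 with genes Present on at least 3 arrays, 2 with no filter, 14 with the SD about each sex's mean and 15 with the SD relative to genes of like brightness. The sex comparison called 10 genes with no filter, 39 over all probe sets and 7 without trend and robust estimation, against 24 as reported. At a detection p under 0.01, 8073 probe sets were Present and 11875 were not Present on any array. Leaving out each array in turn gave 10889 to 10989 probe sets Present and 8196 to 8301 Absent on the rest, kept 29 to 30 of the brightest and 20 to 27 of the most variable genes, gave 400 to 406 listed genes Present, and left 4 of the 5 further probe sets among the 10% of largest SD. The sex comparison then called 10 to 27 genes. The causes of these differences were not tested. Under the alternatives that were run, no called gene changed direction. Dim genes are limited by background, as the overlap of Present and Absent signals shows.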
